A study of Homo sapiens with 9 samples.

Results

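The genes described here encode the enzymes and transporters that build glycosaminoglycans, the sulfated sugar chains of proteoglycans, together with the synthases of hyaluronan. A list of 39 genes was drawn by symbol from knowledge of the pathway, with no measured value in its rule but with earlier results of these data known, and all 39 were found among the 60671 genes measured. The material was C28/I2, a single immortalised human chondrocyte line, in 9 libraries of total RNA depleted of ribosomal RNA. They form 3 groups of 3 libraries: Control, Scrambled, and CA2 shRNA, in which cells were transduced with a short hairpin RNA against CA2, the gene for carbonic anhydrase 2. What construct the Scrambled cells carried, and whether the Control cells were transduced at all, is not described. Nothing states that the 3 libraries of a group came from separate cultures. The p-values below therefore measure the spread between these libraries, which may be technical.

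Cartilage resists compression because its proteoglycans, aggrecan above all, carry dense chondroitin sulfate chains that bind water, and because these proteoglycans are held on long hyaluronan chains. Chondroitin, dermatan and heparan sulfate are assembled in the Golgi on a short linker attached to a core protein, extended by paired polymerases and then sulfated and epimerised in patterns that set what they bind. Hyaluronan differs in that it has no core protein and no sulfate and is extruded at the plasma membrane by its synthase. All of these routes draw on nucleotide sugars, and the sulfated ones also on the activated sulfate donor PAPS.

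In bulk RNA, fewer cells of a type and less RNA per cell cannot be told apart. Libraries held 16994368 to 34261244 counts. The targeted gene, CA2, was read at 1.94 to 2.31 TMM-scaled CPM (counts scaled to library size and composition) in Control, at 1.82 to 2.06 in Scrambled and at 0.905 to 1.4 in CA2 shRNA. It had only 390 counts in all, with 28, 15 and 30 in CA2 shRNA 1 to 3. Its level in CA2 shRNA was 58.2% of the Scrambled mean, a log2 change of -0.77 (SE 0.231, n = 3 per group, adjusted p = 0.0276 by edgeR's quasi-likelihood test), and 54.4% of the Control mean (adjusted p = 0.0159). Leaving out CA2 shRNA 2 (adjusted p = 0.1), CA2 shRNA 3 (0.109), Scrambled 2 (0.0533) or Scrambled 3 (0.103) ended the call against Scrambled, as did DESeq2 (0.0659), no filter (0.0544) and thinned counts (0.0911). The call against Control ended without CA2 shRNA 2 (0.0665), CA2 shRNA 3 (0.0759) or Control 1 (0.0531) and in thinned counts (0.0519). Among 16 chondrocyte markers, 6 reached 1 CPM. SOX9, the chondrocyte transcription factor, lay between 81.7 and 105 CPM, COL2A1 between 1.45 and 2.23, ACAN (aggrecan) between 0.402 and 1.17, and COL9A1 was at 0 in every library. The summed level of that list was 111.6 to 125.5 CPM in Control, 116.1 to 125.4 in Scrambled and 130.4 to 132.4 in CA2 shRNA. SOX9 alone accounted for the higher sum, since without it the list summed to 28.5 to 30.9, 27.9 to 32.9 and 26.5 to 27.2 CPM. Of the 10 list members tested, SOX9 passed as higher and COMP as lower against each control, and the median log2 change was -0.16 against Scrambled and -0.22 against Control. The sum of 10 fibroblast-like markers was 11330 to 12230 CPM, 11080 to 11620 and 8415 to 8729 in the same order, with 8 of the 10 at 1 CPM or more. Most of that fall was FN1 (fibronectin), at 7269 to 7995, 6977 to 7665 and 4898 to 5157 CPM. Without it the sum was 3935 to 4231, 3956 to 4102 and 3517 to 3572. Of 9 tested, FN1, COL3A1 and COL5A1 passed as lower against each control and 6 did not pass. The sum of 7 epithelial markers, of which only KRT8 and KRT18 reached 1 CPM, was 346 to 370, 338 to 364 and 381 to 436. No part of these shifts in the results below was tested. Control 3 and Scrambled 2 had the lowest shares of mitochondrial counts, 4.06% and 4.08%, against 5.55% to 6.86% in the other 7 libraries. By a chi-square per gene these libraries lay closer to each other (3.70) than to any library of their own group (8.21 to 19.6). The same held for Control 1 and Scrambled 3, at 3.96. Control 1 lay at 4.79 and 14.4 from its own group, and Scrambled 3 at 5.87 and 17.7. This measure was not adjusted for depth.

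Synthesis genes moved in both directions when CA2 shRNA cells were set against either control. Of the 38 genes with enough counts to test, 9 rose and 4 fell against Scrambled, and 25 did not pass an adjusted p of 0.05. Over all 19812 genes tested in that comparison 16.9% were called, 8.02% higher and 8.88% lower, and among the 11673 with a mean of at least 5 CPM the share was 25.0%. The 38 members are mostly well expressed: 35 of them reached that mean, and all 13 that were called lie among those 35. Against Control, 6 members rose, 5 fell and 27 did not pass, where 14.7% of all genes were called (6.41% higher, 8.26% lower) and 22.2% of those at 5 CPM or more. The median log2 change of the 38 was 0.08 against Scrambled and 0.06 against Control, beside medians of -0.025 and -0.0048 over all genes.

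Against both controls and in the same direction, 6 members rose, namely HAS3, PAPSS2, GLCE, SLC35D1, XYLT2 and UGDH, and 4 fell, namely CHST12, EXT2, CHST11 and EXT1. Over all genes, 5.49% rose and 6.98% fell in this way. These comparisons share the CA2 shRNA libraries and are not independent of each other. Counting libraries alone, 12 members lay higher in all 3 CA2 shRNA libraries than in any of the 6 control libraries and 4 lay lower, while 23.6% of all genes were separated in one direction or the other. The 23.6%, like the 5.49% and 6.98%, is over all genes tested. No such share was computed for genes at 5 CPM or more, where 35 of the 38 members lie. Between Scrambled and Control no member passed: 0 of 38 were called by edgeR's quasi-likelihood test and 0 had an unadjusted p under 0.05. Of all genes 0.0% passed (550 of 19812 at an unadjusted p under 0.05; DESeq2 called 1 gene and limma-voom 0).

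**Figure D1:**
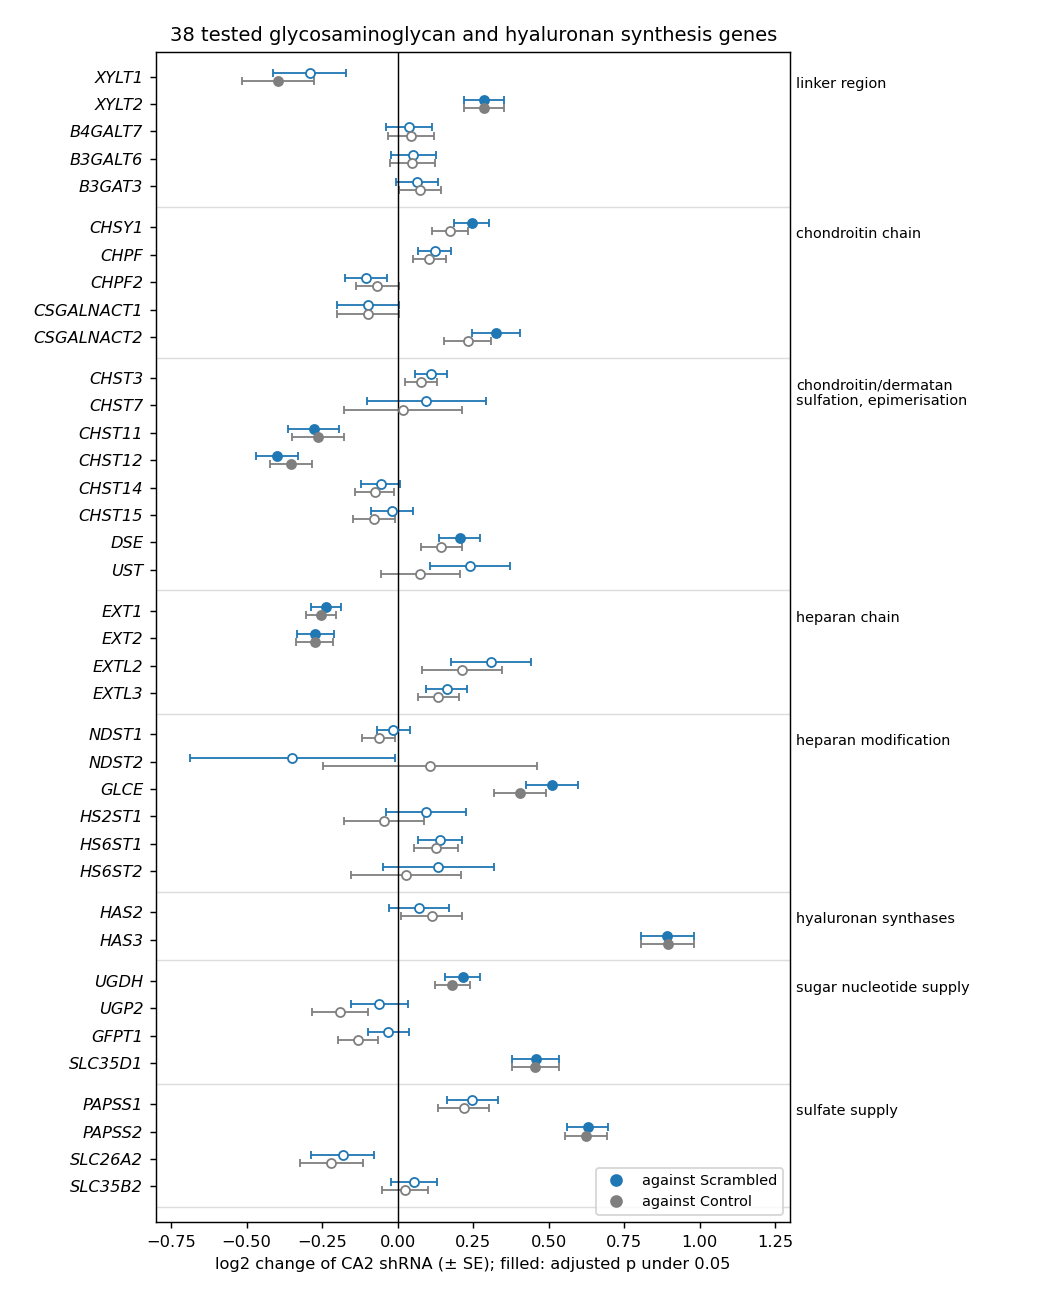
Log2 change of each of the 38 tested genes in CA2 shRNA against Scrambled (blue) and against Control (grey), grouped by role, with bars of 1 standard error; filled points have an adjusted p under 0.05. HAS3 lies farthest to the right at 0.89 in both comparisons, and the filled points left of 0 are CHST11, CHST12, EXT1 and EXT2 in both and XYLT1 against Control.

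The routes are not expressed evenly in these cells. Per exon length, in RPKM as the authors deposited it, the highest medians over the 9 libraries were those of CHPF, a chondroitin polymerising factor (49.2), UGDH, which makes UDP-glucuronic acid (39.5), CHST14, the dermatan 4-sulfotransferase (36.7), NDST1, which begins heparan sulfation (34.9), and EXT1, a heparan polymerase subunit (33.0). The synthases of hyaluronan stood far lower, HAS2 at 3.35 and HAS3 at 2.68 RPKM. At the low end were XYLT1 (0.867), HS6ST2 (0.851) and NDST2 (0.249). This order depends on the annotated exon length by which each count was divided. CHSY3, a chondroitin synthase, could not be tested. It had 20 counts in all, 2 to 7 in each of the 6 control libraries and 0 in each CA2 shRNA library. A count of 0 there allows up to 3 counts, or 0.111 to 0.177 CPM, where the controls lay between 0.0677 and 0.205. Control 3, at 0.205 CPM, lay above these limits in all 3 CA2 shRNA libraries, and the other control libraries lay within or below the range of the limits. Each limit holds for 1 library on its own, and none was computed for the 3 CA2 shRNA libraries together. A difference in CHSY3 was not tested. Within a group, the 35 members at 5 CPM or more varied little, with a median coefficient of variation of 5.79% in Control, 5.81% in Scrambled and 3.80% in CA2 shRNA.

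**Figure D2:**
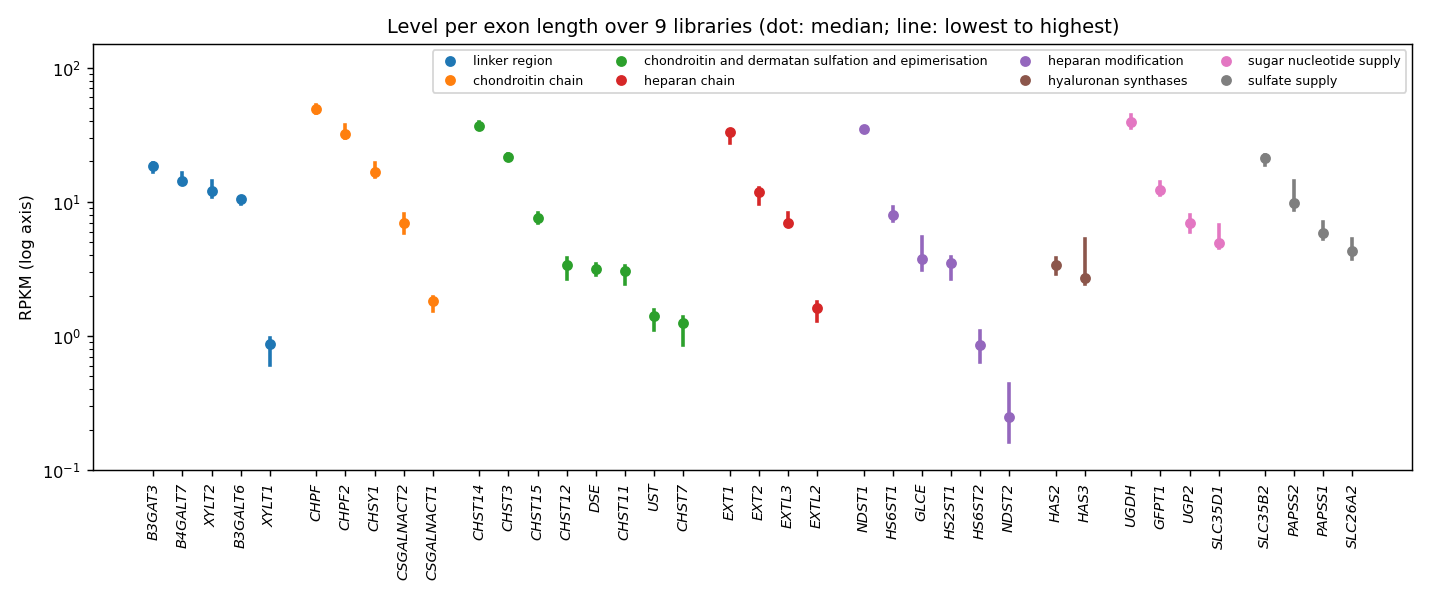
RPKM on a log axis for the 38 tested genes ordered within their roles; the dot is the median over 9 libraries and the line runs from the lowest to the highest library. CHPF is highest at 49.2 RPKM and NDST2 lowest at 0.249, with HAS2 at 3.35 and HAS3 at 2.68.

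Of the hyaluronan synthases, HAS3 rose in the CA2 shRNA cells, and HAS2 did not pass in either comparison. HAS3 (ENSG00000103044, chr16:69105653-69118719, plus strand, GRCh38) was read at 14.6, 12.9 and 13.6 CPM in Control 1 to 3, at 13.7, 13.9 and 13.5 in Scrambled and at 23.8, 27.9 and 24.9 in CA2 shRNA. Every CA2 shRNA library lay above every control library. The mean of 25.5 ± 2.17 CPM (SD, n = 3) was 186% of the Scrambled mean of 13.7 ± 0.210, with a log2 change of 0.89 (SE 0.0880, adjusted p = 1.21e-06 by edgeR's quasi-likelihood test). It was likewise 186% of the Control mean of 13.7 ± 0.857 (log2 0.89, SE 0.0883, adjusted p = 1.27e-06). HAS2, a synthase known for making long hyaluronan chains, was at 12.2, 14.5 and 14.1 CPM in Control, at 14.7, 14.2 and 13.1 in Scrambled and at 16.0, 13.5 and 14.5 in CA2 shRNA. Its groups overlapped, and its log2 change was 0.07 against Scrambled (SE 0.0994, adjusted p = 0.694) and 0.11 against Control (SE 0.0997, adjusted p = 0.543). In RPKM, HAS3 stood at 0.728 to 0.978 times HAS2 in the 6 control libraries and at 1.21 to 1.69 times HAS2 in the 3 CA2 shRNA libraries. The exons of HAS3 share 7.02% of their bases with CHTF8 on the opposite strand (296 counts) and those of HAS2 5.92% with HAS2-AS1 (280 counts). How the counting treated strand is not given in the sources used here.

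In sulfate supply, PAPSS2 rose and the other 3 genes did not pass. PAPSS2 and PAPSS1 encode the bifunctional synthases of PAPS, and loss of PAPSS2 is a known cause of a skeletal dysplasia. PAPSS2 (ENSG00000198682, chr10:87659613-87747705, plus strand) was at 36.3, 36.1 and 40.0 CPM in Control, at 36.2, 39.7 and 36.3 in Scrambled and at 57.0, 58.9 and 57.6 in CA2 shRNA, so that the CA2 shRNA libraries lay well apart from all the others. Its mean of 57.8 ± 0.968 CPM was 155% of the Scrambled mean of 37.4 ± 2.03 (log2 0.63, SE 0.0684, adjusted p = 4.04e-06) and 154% of the Control mean of 37.5 ± 2.24 (adjusted p = 4.37e-06). PAPSS1 was at 17.4, 19.3 and 18.5 CPM in Control, at 19.5, 17.5 and 17.2 in Scrambled and at 22.8, 20.9 and 20.5 in CA2 shRNA. These groups did not overlap, yet the log2 change of PAPSS1 missed the threshold, at 0.25 against Scrambled (SE 0.0856, adjusted p = 0.0557) and 0.22 against Control (adjusted p = 0.105). PAPSS1 passed against Scrambled without Scrambled 1 (adjusted p = 0.0314) and against Control without Scrambled 2 (0.0479). SLC26A2, the plasma membrane sulfate carrier, had a log2 change of -0.18 against Scrambled (adjusted p = 0.276) and passed, as lower, without Scrambled 1 in both comparisons (0.0155 and 0.0389). SLC35B2, which carries PAPS into the Golgi, had one of 0.05 (adjusted p = 0.693).

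Among the 4 genes of nucleotide sugar supply, SLC35D1 and UGDH rose, and UGP2 and GFPT1 did not pass. SLC35D1 transports UDP-glucuronic acid and UDP-N-acetylgalactosamine into the endoplasmic reticulum. It was read (ENSG00000116704, chr1:66999350-67054148, minus strand) at 29.9, 29.5 and 30.6 CPM in Control, at 27.9, 33.5 and 28.5 in Scrambled and at 41.7, 42.4 and 39.5 in CA2 shRNA. The 3 CA2 shRNA values exceeded all 6 others. The mean of 41.2 ± 1.48 CPM was 137% of that of either control (log2 0.46 against each; SE 0.0771 and adjusted p = 0.000425 against Scrambled, SE 0.0772 and 0.000432 against Control). UGDH (ENSG00000109814, chr4:39498755-39528311, minus strand) was at 142, 159 and 162 CPM in Control, at 145, 159 and 148 in Scrambled and at 172, 175 and 177 in CA2 shRNA. The gain was smaller, 116% of the Scrambled mean (log2 0.21, SE 0.0588, adjusted p = 0.017) and 113% of the Control mean (log2 0.18, adjusted p = 0.0469). The UGDH call against Scrambled was lost without Scrambled 1 (adjusted p = 0.0589), Scrambled 3 (0.084) or CA2 shRNA 2 (0.0585). The call against Control was lost without CA2 shRNA 2 (0.138), CA2 shRNA 3 (0.0739), Control 1 (0.211), Control 2 (0.118) or Scrambled 3 (0.072), with no filter (0.0531) and under limma-voom (0.0502). UGP2, which makes UDP-glucose, had log2 changes of -0.06 and -0.19 against Scrambled and Control (adjusted p = 0.726 and 0.209). GFPT1, the entry step of hexosamine synthesis, had changes of -0.03 and -0.13 (0.812 and 0.228).

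**Figure D3:**
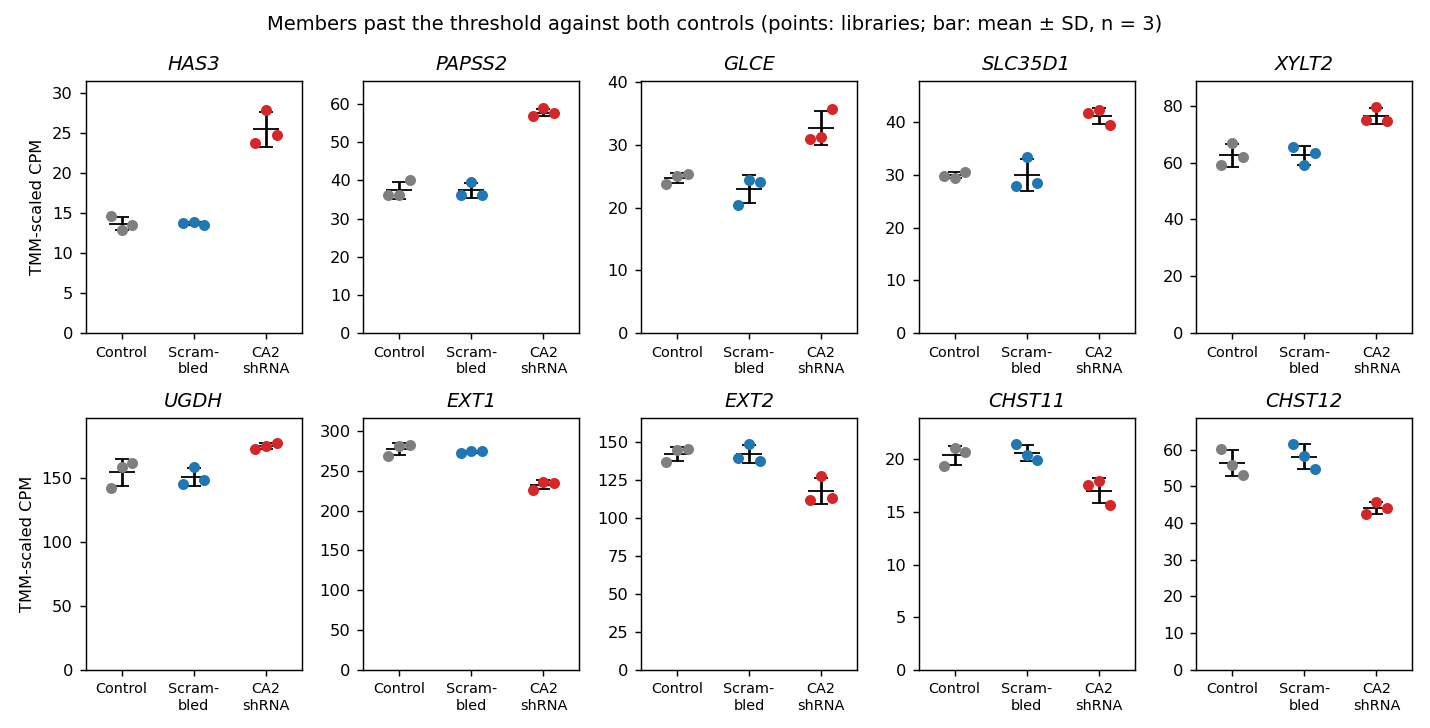
TMM-scaled CPM in each library of the 10 genes that passed against both controls in the same direction; points are libraries and bars the group mean ± SD (n = 3), on axes that start at 0. HAS3, PAPSS2, GLCE, SLC35D1, XYLT2 and UGDH lie higher in all 3 CA2 shRNA libraries than in all 6 controls, and EXT1, EXT2, CHST11 and CHST12 lie lower.

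Of the 5 linker enzymes, XYLT2 rose and XYLT1, the other xylosyltransferase able to place the first sugar on a core protein, fell against Control and did not pass against Scrambled. XYLT2 (ENSG00000015532, chr17:50346126-50363138, plus strand) was at 59.1, 67.1 and 61.8 CPM in Control, at 65.6, 59.0 and 63.3 in Scrambled and at 75.0, 79.6 and 74.6 in CA2 shRNA. Its mean of 76.4 ± 2.80 CPM was 122% of the mean of each control, with a log2 change of 0.29 against each (SE 0.0660; adjusted p = 0.00551 against Scrambled and 0.00587 against Control). XYLT1 (ENSG00000103489, chr16:17101769-17470960, minus strand) was at 10.3, 9.71 and 10.8 CPM in Control, at 8.71, 9.60 and 10.3 in Scrambled and at 7.34, 6.88 and 8.99 in CA2 shRNA. The CA2 shRNA range lay below the Control range and overlapped the Scrambled range. The XYLT1 log2 change was -0.40 against Control (SE 0.121, adjusted p = 0.0335) and -0.29 against Scrambled (SE 0.121, adjusted p = 0.114). The XYLT1 call was lost without Control 1 (adjusted p = 0.0688), Control 2 (0.0513), Control 3 (0.123), CA2 shRNA 1 (0.158) or CA2 shRNA 2 (0.129), without both Control 3 and Scrambled 2 (0.112) and in counts thinned to the smallest library (0.0558). B4GALT7, B3GALT6 and B3GAT3, which add the remaining linker sugars in turn, differed by 0.04 to 0.06 on the log2 scale against Scrambled and by 0.05 to 0.07 against Control, and none passed.

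In the chondroitin chain, 2 of the 5 tested genes rose against Scrambled, none fell, and none passed against Control. CHSY1, a chondroitin synthase (ENSG00000131873, chr15:101175727-101252048, minus strand), was at 90.3, 92.7 and 101 CPM in Control, at 88.5, 94.1 and 87.6 in Scrambled and at 109, 105 and 105 in CA2 shRNA. Its log2 change was 0.24 against Scrambled (SE 0.0590, adjusted p = 0.00758) and 0.17 against Control (SE 0.0590, adjusted p = 0.0582). CSGALNACT2, which places the first N-acetylgalactosamine that commits a linker to chondroitin (ENSG00000169826, chr10:43138445-43185302, plus strand), was at 23.3, 26.4 and 26.5 CPM in Control, at 22.0, 24.7 and 24.7 in Scrambled and at 30.3, 29.8 and 29.5 in CA2 shRNA. Its log2 change was 0.33 against Scrambled (SE 0.0787, adjusted p = 0.00764) and 0.23 against Control (SE 0.0786, adjusted p = 0.057). For both genes each CA2 shRNA library exceeded each control library, including those of Control. CHSY1 missed the threshold against Scrambled without Scrambled 3 (adjusted p = 0.0519) and passed against Control without Control 3 (0.0382) or Scrambled 2 (0.0157). CSGALNACT2 passed against Control without Scrambled 1 (0.0487) or Scrambled 2 (0.0203). CSGALNACT1, its paralog with the same reaction, was at 11.3, 13.0 and 12.0 CPM in Control, at 11.6, 12.0 and 12.6 in Scrambled and at 9.98, 11.8 and 12.1 in CA2 shRNA, without a call (log2 -0.10 against each). Neither polymerising factor passed: CHPF was at 157, 168 and 166 CPM in Control, at 168, 161 and 156 in Scrambled and at 174, 183 and 170.3 in CA2 shRNA (log2 0.12 against Scrambled, adjusted p = 0.141). CHPF2 was at 145, 141 and 129, at 155, 125 and 146 and at 135, 133 and 128 in the same order (log2 -0.11, adjusted p = 0.356).

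Chondroitin sulfation and epimerisation comprised 8 genes, of which CHST11 and CHST12 fell against both controls and DSE rose against Scrambled. CHST11 and CHST12 are chondroitin 4-sulfotransferases. CHST13, a further gene of that class outside the 39, did not pass (log2 -0.01 against Scrambled and 0.24 against Control). CHST12 (ENSG00000136213, chr7:2403588-2448484, plus strand) was at 60.2, 55.7 and 53.0 CPM in Control, at 61.4, 58.2 and 54.6 in Scrambled and at 42.3, 45.6 and 44.2 in CA2 shRNA, all 3 below the lowest control library. The mean of 44.1 ± 1.65 CPM was 75.8% of the Scrambled mean (log2 -0.40, SE 0.0696, adjusted p = 0.000568) and 78.3% of the Control mean (log2 -0.35, SE 0.0697, adjusted p = 0.00167). CHST11 (ENSG00000171310, chr12:104455295-104762014, plus strand) was at 19.4, 21.1 and 20.7 CPM in Control, at 21.5, 20.4 and 19.9 in Scrambled and at 17.6, 17.9 and 15.6 in CA2 shRNA, also without overlap. Its log2 change was -0.28 against Scrambled (SE 0.0844, adjusted p = 0.0301) and -0.26 against Control (SE 0.0846, adjusted p = 0.0435). The CHST11 call against Scrambled was lost without CA2 shRNA 1 (adjusted p = 0.0878), CA2 shRNA 3 (0.23), Scrambled 1 (0.0618), Scrambled 2 (0.058) or Scrambled 3 (0.0638), without both Control 3 and Scrambled 2 (0.0572), with no filter (0.053), with only these groups in the model (0.0603), in thinned counts (0.072) and under DESeq2 (0.0807). The call against Control was lost without CA2 shRNA 1 (0.118), CA2 shRNA 3 (0.297), Control 2 (0.133), Control 3 (0.132), Scrambled 2 (0.0618) or Scrambled 3 (0.0642), without both Control 3 and Scrambled 2 (0.138), with DESeq2 size factors (0.0608), with no filter (0.0665), in thinned counts (0.0546), under DESeq2 (0.0877) and with a replicate block (0.0516).

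DSE, the epimerase that turns chondroitin into dermatan sulfate (ENSG00000111817, chr6:116254173-116444861, plus strand), was at 55.1, 61.3 and 60.5 CPM in Control, at 53.9, 60.9 and 54.9 in Scrambled and at 65.6, 65.5 and 64.6 in CA2 shRNA. Its CA2 shRNA libraries lay above all 6 controls, with a log2 change of 0.20 against Scrambled (SE 0.0665, adjusted p = 0.0419) and 0.14 against Control (adjusted p = 0.172). The DSE call was lost without any 1 of the CA2 shRNA libraries (adjusted p = 0.0602, 0.121 and 0.0503 without library 1, 2 and 3) and without Control 2 (0.0796), Control 3 (0.0548), Scrambled 1 (0.132) or Scrambled 3 (0.17), and with only these groups in the model (0.0557). DSE shares 3.07% of its exon bases with TSPYL1 on the opposite strand, which had 17266 counts. The 6-sulfotransferases did not pass: CHST3 was at 144, 148 and 154 CPM in Control, at 149, 145 and 142 in Scrambled and at 153, 162 and 155 in CA2 shRNA (log2 0.11 against Scrambled, adjusted p = 0.184). CHST7 was at 2.60, 2.93 and 3.34, at 2.04, 3.10 and 3.25 and at 2.99, 3.20 and 2.89 (log2 0.09, adjusted p = 0.803). Nor did CHST14 (log2 -0.06), CHST15, which adds a further sulfate to 4-sulfated chondroitin (log2 -0.02), or UST, the uronosyl 2-sulfotransferase (log2 0.24, adjusted p = 0.249).

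EXT1 and EXT2, whose products form the heparan sulfate polymerase, fell together against both controls. EXT1 (ENSG00000182197, chr8:117794490-118111826, minus strand) was at 268, 282 and 282 CPM in Control, at 272, 274 and 275 in Scrambled and at 226, 236 and 235 in CA2 shRNA. The mean of 232 ± 5.50 CPM was 84.9% of the Scrambled mean (log2 -0.24, SE 0.0497, adjusted p = 0.00282) and 83.8% of the Control mean (log2 -0.25, SE 0.0497, adjusted p = 0.00151). EXT2 (ENSG00000151348, chr11:44095673-44251962, plus strand) was at 137, 145 and 145 CPM in Control, at 139.6, 149 and 138 in Scrambled and at 112, 128 and 114 in CA2 shRNA. For both genes each CA2 shRNA library was below each control library. EXT2 reached 82.9% of the Scrambled mean (log2 -0.27, SE 0.0609, adjusted p = 0.00439) and 82.8% of the Control mean (adjusted p = 0.00446). The EXT2 call was lost without CA2 shRNA 1 (adjusted p = 0.0622 against Scrambled, 0.0668 against Control) or CA2 shRNA 3 (0.0527 and 0.0559). The EXT-like genes did not pass: EXTL3, which commits a linker to heparan, had a log2 change of 0.16 against Scrambled (adjusted p = 0.116; 0.0367 without CA2 shRNA 1). EXTL2 had one of 0.31 (adjusted p = 0.127; 0.0344 without Scrambled 2).

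Among the 6 genes of heparan modification, GLCE rose against both controls and 5 did not pass. GLCE encodes the epimerase that makes iduronic acid in heparan sulfate. It was read (ENSG00000138604, chr15:69160584-69272217, plus strand) at 23.8, 25.0 and 25.4 CPM in Control, at 20.4, 24.4 and 24.1 in Scrambled and at 31.0, 31.3 and 35.8 in CA2 shRNA, without overlap. The mean of 32.7 ± 2.66 CPM was 142% of the Scrambled mean of 23.0 ± 2.25 (log2 0.51, SE 0.0860, adjusted p = 0.000419) and 132% of the Control mean of 24.7 ± 0.842 (log2 0.41, SE 0.0858, adjusted p = 0.00302). NDST1, at 311 to 346 CPM over the 9 libraries, had a log2 difference from Scrambled of -0.01 (SE 0.0540, adjusted p = 0.902). NDST2 was near the limit of measurement with 289 counts in all, and 82.9% of its exon bases are shared with ENSG00000272916 on the same strand, so its count is uncertain. The 2-sulfotransferase HS2ST1 had a log2 change of 0.09 against Scrambled (SE 0.133, adjusted p = 0.705). HS6ST1, a heparan 6-sulfotransferase, was at 39.3, 39.3 and 38.2 CPM in Control, at 40.5, 39.4 and 35.8 in Scrambled and at 40.2, 46.5 and 41.1 in CA2 shRNA (log2 0.14, adjusted p = 0.222). HS6ST2 was at 4.03, 4.29 and 4.61, at 3.24, 4.47 and 4.26 and at 5.44, 3.26 and 4.42 (log2 0.14, adjusted p = 0.681).

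The balance between enzymes that can carry out the same step was described by ratios of RPKM within a library, which remove depth but carry no test. RPKM divides by annotated exon length, 16116 bases for CHST12 and 6492 for CHST11. The size of a ratio thus depends on the annotation, while its comparison between libraries does not. XYLT2 stood at 12.4 ± 1.36 times XYLT1 in Control (mean ± SD, n = 3), at 13.4 ± 1.61 times in Scrambled and at 20.3 ± 3.34 times in CA2 shRNA. PAPSS2 stood at 1.63 ± 0.122, 1.66 ± 0.168 and 2.16 ± 0.144 times PAPSS1 in the same order. CSGALNACT2 stood at 3.67 ± 0.175, 3.44 ± 0.137 and 4.66 ± 0.561 times CSGALNACT1. In these 3 pairs, as in HAS3 and HAS2, the CA2 shRNA libraries did not overlap the 6 controls. CHPF over CHPF2 was also without overlap, but narrowly, with a lowest CA2 shRNA library of 1.610 and a highest control library of 1.605. The ratio of CHST12 to CHST11 did overlap, at 1.11 ± 0.119, 1.13 ± 0.0260 and 1.04 ± 0.0854, both genes having fallen. So did the ratio of EXT1 to EXT2, at 2.75 ± 0.0175, 2.72 ± 0.111 and 2.79 ± 0.163, and those of CHST3 to CHST7 and of HS6ST1 to HS6ST2. These 9 pairs were all that were computed.

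**Figure D4:**
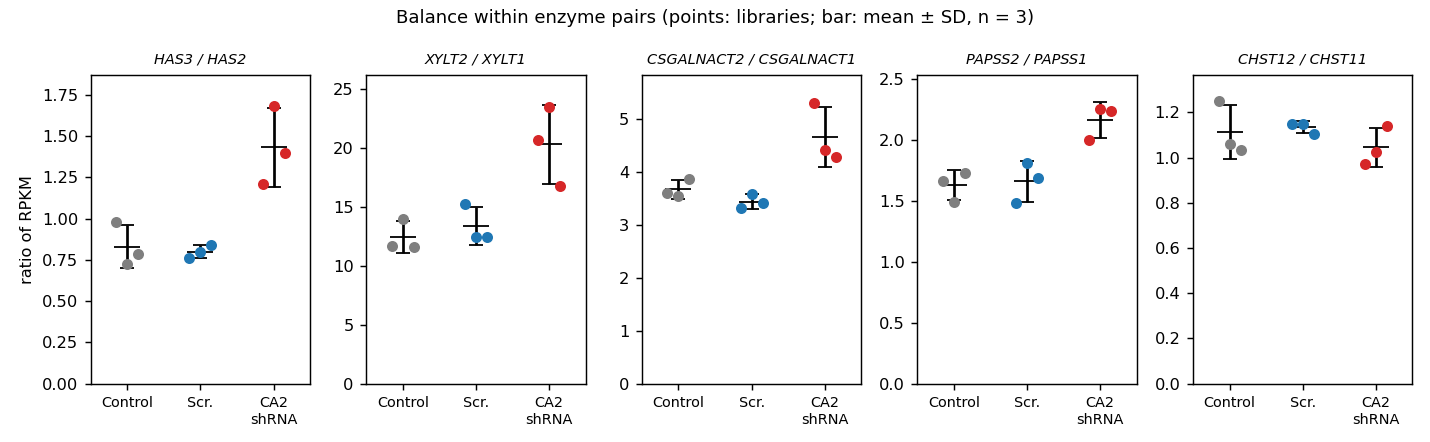
Ratio of RPKM between enzymes of the same step in each library, with bars of mean ± SD (n = 3). For HAS3 over HAS2, XYLT2 over XYLT1, CSGALNACT2 over CSGALNACT1 and PAPSS2 over PAPSS1 the 3 CA2 shRNA points lie above all control points, and for CHST12 over CHST11, where the Control mean is 1.11 and the CA2 shRNA mean 1.04, they overlap.

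Promoter sequence was read to show what lies at the starts of members that moved in either direction. RefSeq windows (GRCh38.p14) of 300 bases, 250 before and 50 from the start on, were found for 34 of the 39 genes, 46 windows in all; CSGALNACT1, EXT1, EXTL3, HAS2 and PAPSS2 had no entry. The motifs searched on both strands were CACGTG (the E-box, its own reverse complement), GGGCGG (the GC box), CCAAT, then the TATA motif TATAAA and the AP-1 motif TGANTCA, and overlapping matches were each counted. GGGCGG was in 84.8% of the members' windows against 45.0% of all 35116 windows. CACGTG was in 13.0% against 7.26%. The last 3 motifs occur in 34.6%, 11.5% and 7.71% of all windows, and each was less frequent in the members' windows. There TATAAA was found only for EXT2, and TGANTCA only for CHST3, CHST14 and NDST1. CCAAT was found for B3GALT6, CHSY1, CHPF, CHST7, DSE, EXTL2, GLCE, HS2ST1, HS6ST2, UGP2 and SLC26A2. The share of G and C in the members' windows ran from 39% (DSE) to 79.7% (B3GALT6). The motif shares were not adjusted for base composition. Genes with several windows were counted more than once, and windows of EXT2, NDST2 and SLC35B2 overlap. The windows of all genes were not limited to expressed genes. Of the 6 members with a CACGTG, HAS3 and CHSY1 rose against Scrambled, and B3GALT6, EXTL2, SLC26A2 and SLC35B2 did not pass. In HAS3 the CACGTG begins 66 bases before the RefSeq start of its window. That window lies inside the HAS3 gene span, which begins at 69105653, and which start these cells use was not tested. Shown are 3 genes that rose against both controls and 1 that fell, 5′ to 3′ on the gene's strand, with capitals for CACGTG and for GGGCGG on either strand (CCGCCC where it lies on the other strand). HAS3 is chr16:69107290-69107589 (plus), SLC35D1 chr1:67054099-67054398 (minus), GLCE chr15:69160385-69160684 (plus) and CHST12 chr7:2403361-2403660 (plus). SLC35D1 has 1 GGGCGG, GLCE 5 and CHST12 7, so that the motif is found both in genes that rose and in one that fell.
HAS3: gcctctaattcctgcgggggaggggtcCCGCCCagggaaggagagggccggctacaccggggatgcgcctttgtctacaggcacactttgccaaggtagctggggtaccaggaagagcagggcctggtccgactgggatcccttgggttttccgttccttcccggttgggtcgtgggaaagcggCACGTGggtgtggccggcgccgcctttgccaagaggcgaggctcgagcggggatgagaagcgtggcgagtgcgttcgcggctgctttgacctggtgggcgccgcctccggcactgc
SLC35D1: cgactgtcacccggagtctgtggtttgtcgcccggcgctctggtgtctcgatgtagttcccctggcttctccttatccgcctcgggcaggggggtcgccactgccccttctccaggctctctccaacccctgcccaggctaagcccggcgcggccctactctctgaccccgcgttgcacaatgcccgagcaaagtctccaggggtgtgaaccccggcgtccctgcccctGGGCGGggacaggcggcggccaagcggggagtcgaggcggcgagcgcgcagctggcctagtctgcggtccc
GLCE: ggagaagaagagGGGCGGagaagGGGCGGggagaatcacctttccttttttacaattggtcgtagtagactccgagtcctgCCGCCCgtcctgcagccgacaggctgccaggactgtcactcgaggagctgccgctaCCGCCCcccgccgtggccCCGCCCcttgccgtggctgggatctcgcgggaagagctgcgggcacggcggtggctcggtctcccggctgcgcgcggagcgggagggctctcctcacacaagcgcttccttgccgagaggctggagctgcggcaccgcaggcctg
CHST12: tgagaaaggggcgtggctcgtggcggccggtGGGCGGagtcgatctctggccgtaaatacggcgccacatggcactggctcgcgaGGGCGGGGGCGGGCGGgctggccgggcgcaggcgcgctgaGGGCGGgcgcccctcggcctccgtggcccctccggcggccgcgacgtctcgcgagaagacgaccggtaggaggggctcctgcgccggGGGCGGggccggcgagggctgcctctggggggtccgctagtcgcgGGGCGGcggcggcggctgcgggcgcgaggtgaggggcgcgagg

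Of the 4 members that fell against Scrambled, 3 held at least 1 of a pair of 7-base motifs in their 3′ untranslated regions, and of the 9 that rose none did. The motifs ACACCAA and CACCAAA, taken from earlier results of these data and so no independent evidence, were searched on the transcript strand in these regions of all basic coding transcripts of GENCODE 29 (GRCh38). They overlap each other by 6 bases. Of 38 members searched, 10 held either (26.3%), beside 2775 of 13957 tested genes (19.9%). Against Scrambled, 3 of these 10 fell (CHST12, EXT1 and EXT2) and 0 rose, and of the 28 without a heptamer 1 fell (CHST11) and 9 rose. Over all genes searched, 26.4% of those holding a heptamer fell and 5.37% rose, against 6.84% and 12.7% of those without. In counts, 733 genes holding one and 765 without one fell, and 149 and 1423 rose. Against Control, 3 of the 10 members fell and 0 rose, and of the 28 without, 2 fell (CHST11 and XYLT1) and 6 rose. Over all genes searched there, 27.1% of those holding one fell and 4.72% rose, against 6.35% and 9.99% of those without. The length of the regions searched, up to 14599 bases in CHST12, was not adjusted for. The members that held one and did not pass were CHST14, CHST15, EXTL3, NDST1, HAS2, GFPT1 and SLC26A2. Sites are shown for CHST12 (chr7:2438264-2438286, plus) and EXT2 (chr11:44244939-44244961, plus), which fell, and for CHST15 (chr10:124008188-124008210, minus) and SLC26A2 (chr5:149983992-149984014, plus), which did not pass, with the heptamer in capitals. In the lists described next, 3 of the 7 breakdown genes and 3 of the 3 core protein genes that fell against Scrambled held a heptamer, and none of the 4 that rose did. Of the remaining lists, the 1 synthesis gene that fell, HS3ST3A1, held one, and the 1 keratan sulfate gene that rose did not. Beside these stand the 733 and 765 genes over all searched that fell with and without a heptamer, and the 149 and 1423 that rose.
CHST12 site: ttggggccACACCAAcgtcccca
EXT2 site: tgtcttaaACACCAAttcctgat
CHST15 site: actattccACACCAAccataatt
SLC26A2 site: attagccaACACCAAcacagcaa

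Beyond the 39, genes that act on the same chains were read from lists chosen with earlier results of these data known. Of 21 tested breakdown and remodelling genes, 7 fell, 1 rose and 13 did not pass against Scrambled (median log2 -0.12), while 8.88% of all genes tested fell and 8.02% rose. Against Control 6 fell, 1 rose and 14 did not pass (median -0.04), beside 8.26% and 6.41% of all genes. Whatever the test, 12 of the 21 log2 changes were below 0 in each comparison. The gene that rose was CEMIP2, a cell-surface protein linked to hyaluronan breakdown, which was at 19.5, 20.5 and 19.5 CPM in Scrambled and at 35.6, 44.3 and 38.9 in CA2 shRNA (log2 0.99, SE 0.0890, adjusted p = 3.89e-07), with Control at 19.6 to 23.3. Those that fell included the lysosomal heparan acetyltransferase HGSNAT, at 77.0 to 82.7 CPM in Scrambled and 45.4 to 47.6 in CA2 shRNA (log2 -0.78, SE 0.0605, adjusted p = 6.78e-08). They also included the lysosomal 4-sulfatase ARSB, at 45.9 to 51.4 and 28.1 to 29.4 (log2 -0.73, SE 0.0773, adjusted p = 2.91e-06). The extracellular heparan 6-sulfatase SULF1 was lower by a log2 change of -0.80 (adjusted p = 0.00151, SE 0.157), and its call against Control was lost without CA2 shRNA 3 (0.0552). HYAL2, SULF2, IDS and NAGLU made up the rest of the 7, and were named after their values were seen. Without Scrambled 3, CA2 shRNA 1 or CA2 shRNA 3 the IDS call against Scrambled was lost (adjusted p = 0.116, 0.154 and 0.116). Its call against Control was lost in 9 of 20 alternatives, among them DESeq2 (adjusted p = 0.0624) and leaving out Control 2 (0.144), Control 3 (0.164), Scrambled 3 (0.0597), CA2 shRNA 1 (0.259) or CA2 shRNA 3 (0.197). The NAGLU call against Scrambled was lost without Scrambled 1, CA2 shRNA 1 or CA2 shRNA 3 (0.0566, 0.122 and 0.0952). NAGLU did not pass against Control (adjusted p = 0.212 by edgeR's quasi-likelihood test).

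Of 23 tested genes for core proteins and hyaluronan binding proteins, 3 rose and 3 fell against Scrambled (median log2 0.03), and 2 rose and 2 fell against Control (median -0.01). Called in all were 26.1% and 17.4% of the 23, beside 16.9% and 14.7% of all genes tested. Among genes with a mean of at least 5 CPM the shares were 25.0% and 22.2%. SDC4, a cell-surface heparan sulfate proteoglycan, was at 310, 325 and 296 CPM in Scrambled and at 442, 487 and 455 in CA2 shRNA (log2 0.57, SE 0.0596, adjusted p = 2.45e-06). The coreceptor TGFBR3 was at 4.53 to 5.83 and 9.23 to 10.5 (log2 0.92, SE 0.130, adjusted p = 6.88e-05). The glypican GPC4 was at 21.4 to 23.1 CPM in Scrambled and 11.5 to 12.7 in CA2 shRNA (log2 -0.86, SE 0.0908, adjusted p = 3e-06). GPC6, at 0.533 to 0.880 and 0.181 to 0.399 CPM, had a log2 change of -1.33 (SE 0.404, adjusted p = 0.0304), a call that ended without CA2 shRNA 2 (0.107), CA2 shRNA 3 (0.101), Scrambled 2 (0.0658) or Scrambled 3 (0.131), without both Control 3 and Scrambled 2 (0.0646) and with no filter (0.05). The others were CSPG4 (log2 0.24) and SDC1 (log2 -0.39), named after their values were seen. CSPG4 and GPC6 did not pass against Control.

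Of the tested synthesis genes outside the 39, 5% were called against Scrambled and 15% against Control, beside 16.9% and 14.7% of all genes tested. Of 20 tested, 1 fell against Scrambled, HS3ST3A1, a heparan 3-sulfotransferase at 28.5, 35.0 and 31.5 CPM in Scrambled and 23.3, 23.0 and 24.1 in CA2 shRNA (log2 -0.43, SE 0.0810, adjusted p = 0.00106), and none rose (median log2 0.08). Against Control HS3ST3A1 fell again (log2 -0.54, adjusted p = 0.000146) beside HS3ST3B1 (log2 -0.33) and FAM20B, the linker xylose kinase (log2 -0.24). The FAM20B call was lost without Control 3 (adjusted p = 0.0865), CA2 shRNA 1 (0.0909) or CA2 shRNA 3 (0.0827), and without both Control 3 and Scrambled 2 (0.0771). That of HS3ST3B1 was lost without Control 1 (0.0741), Control 3 (0.0541), CA2 shRNA 1 (0.108) or CA2 shRNA 3 (0.118). Among 10 keratan sulfate genes B4GALT1, a galactosyltransferase of many glycans, rose from 174 ± 7.86 CPM in Scrambled to 227 ± 12.6 in CA2 shRNA (log2 0.38, SE 0.0630, adjusted p = 0.000314), and the other 9 did not pass in either comparison.

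**Figure D5:**
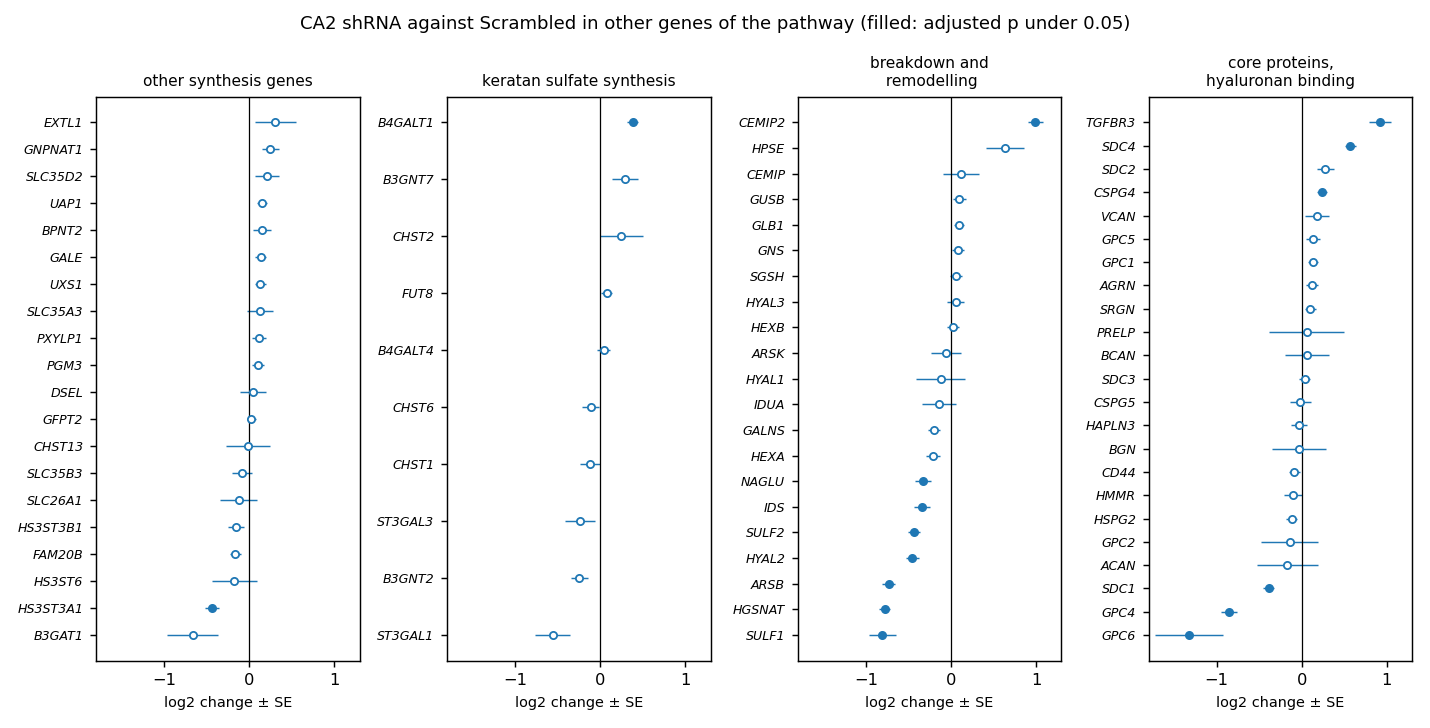
Log2 change in CA2 shRNA against Scrambled for the tested genes of 4 other lists, with bars of 1 standard error; filled points have an adjusted p under 0.05. In the breakdown list 7 filled points lie to the left of 0 and CEMIP2 to the right, and in the core protein list 3 lie on each side.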

How the data were processed

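RNA was sequenced from 9 libraries of C28/I2 cells, 3 per group by the labels. Per the submitters' processing notes, bcl2fastq, STAR 2.5.1a and featureCounts 1.4.6-p5 (Subread) were used with GRCh38; which annotation release and strand setting were used is not given in the sources used here. The authors deposited, per the file headers, a read count, a CPM (count scaled to the library's total) and an RPKM (CPM per kilobase of exon) for each gene.

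The deposited counts were tested with edgeR 4.0.16 (R 4.3.3): filterByExpr left 19812 genes, TMM factors lay between 0.977 and 1.012, and a robust quasi-likelihood model with a term per group used all 9 libraries (6 residual degrees of freedom). P-values were Benjamini-Hochberg adjusted over all genes, with a threshold of 0.05. Printed CPM are TMM-scaled; deposited RPKM served for levels and ratios. In data simulated for CA2 shRNA against Scrambled (19424 genes), 55% of 1.5-fold and 74% of 2-fold changes were recovered. The changed genes were drawn from all genes kept, whatever their level, and smaller changes were not simulated. These shares therefore do not give the recovery for the members. No libraries agreed within sampling noise (chi-square per gene 4.64 or more within groups and 3.70 or more between them). Alternatives used limma 3.58.1 (voom), DESeq2 1.42.0, other scalings and filters, thinned counts, a replicate block and libraries left out.

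The members and the gene lists were chosen with earlier results of these data known. Values are given for every member that passed. From the other lists, up to 4 passing genes with the largest change against Scrambled were named. HS3ST3B1, FAM20B, CHST13 and the genes said to be named after their values were seen lie outside this rule.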

Additional observations from a re-analysis of the deposited data

How the results depend on the processing

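Over 20 alternatives the counts of members called stayed within 1.5 times those reported. Leaving out 1 library at a time gave 9 to 13 calls against Scrambled, 8 to 13 against Control, 0 for Scrambled against Control and 7 to 11 against both controls. Without both Control 3 and Scrambled 2 these were 13, 11, 0 and 11. DESeq2 gave 13, 10, 0 and 9, and limma-voom 13, 10, 0 and 9. Of the 24 single calls, 15 held in every alternative, among them both calls of HAS3, PAPSS2, GLCE, SLC35D1, XYLT2, CHST12 and EXT1; of 480 combinations of a call and an alternative, 52 lost the call and 0 reversed. The EXT2, CHSY1, UGDH, DSE, XYLT1 and CHST11 calls that were lost stand with their values above. Of the members not called, CSGALNACT2 passed against Control in 8 of 20 alternatives, CHSY1 in 6, SLC26A2 in 2 and UGP2 and PAPSS1 in 1 each; against Scrambled PAPSS1 passed in 4, EXTL2 in 2 and EXTL3 and SLC26A2 in 1 each. The cause of these changes was not tested. With a replicate block the counts were 13, 10, 0 and 9; the numbers share no source in the labels and did not pair the libraries (correlations of same-numbered deviations -0.185 to 0.105). Low depth limits CA2, NDST2, CHSY3 and GPC6.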
